A study of Mus musculus with 7 samples.

Results

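Genes of the fibroblasts in the outer layer of the aorta were followed in 10 members, found by their Ensembl identifiers among the 47729 gene rows of the deposited count table. The 8 genes *Pi16*, *Dpt*, *Cd34*, *Ly6a*, *Dpp4*, *Clec3b*, *Sema3c* and *Cd248* were read as resting adventitial genes, and *Fap* and *Pdpn* as genes of activated fibroblasts. All 10 were counted in every library and passed the filter on low counts, which kept 19188 genes. RNA came from mouse aorta labelled as knockout for *Mmp19* (KO, 3 libraries, *Mmp19*-/- in the design text) and from wild-type aorta (WT, 4 libraries). The deleted gene encodes a metalloproteinase released into the matrix, and the series title places it in vascular smooth muscle cells in thoracic aortic aneurysm and dissection. The sources used here do not give age, strain, any further treatment, the stretch of aorta or the cells in which the gene was deleted. Nor do they tie a library to its own mouse, and p-values therefore measure the spread between these 7 libraries.

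The adventitia is the collagen-rich outer coat of an artery, where fibroblasts lie among nerves, small vessels, lymphatics and resident immune cells. In mouse tissues, resting fibroblasts around vessels are known for *Pi16*, *Dpt*, *Cd34* and *Ly6a*, and *Pi16*-positive cells with *Dpp4* and *Sema3c* are described as a reserve from which other fibroblast states arise. After injury or during inflammation, fibroblasts take up *Fap*, a proline-specific surface protease, and *Pdpn*, a mucin-like surface protein. None of these genes is restricted to fibroblasts. Endothelium also makes *Cd34* and *Ly6a*, lymphatic endothelium, mesothelium and some inflammatory macrophages make *Pdpn*, T cells make *Dpp4*, and pericytes make *Cd248*.

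Deposited counts summed to between 68151472 and 76926790 per library. The targeted gene was read first. *Mmp19* stood at 25.5, 12.0 and 15.9 CPM (counts scaled by library size) in KO replicates 1, 2 and 3, against 24.8, 24.8, 20.7 and 34.7 CPM in WT replicates 1 to 4, so KO replicate 1 lay inside the WT range. EdgeR's log2 fold change was -0.56 (SE 0.29, adjusted p = 0.368). Whole-gene counts do not say which exons the reads covered, so this neither bears out nor contradicts the labels. KO replicate 1 stood apart from all other libraries, with a mean chi-square per gene of 147 to 222 in its pairs and of 20.4 to 105 in the pairs without it. The KO libraries did not group together on this measure. KO replicate 2 was nearer to WT replicates 1 to 4 (30.4, 35.9, 40.5 and 20.4) than to KO replicates 1 and 3 (147 and 48.7). Smooth muscle markers were counted in every library, 10 of 10, and so were 20 of 20 general fibroblast genes.

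Stretches of 250 bases before the start are shown for 1 activated and 1 resting gene, both higher in KO, as the members whose window touches no annotated exon. They are given 5′ to 3′ from RefSeq (GRCm38.p6), with CG dinucleotides in capitals, and are chr4:143299565-143299814 for *Pdpn* and chr2:62412232-62412481 for *Dpp4*, both on the minus strand.
Pdpn: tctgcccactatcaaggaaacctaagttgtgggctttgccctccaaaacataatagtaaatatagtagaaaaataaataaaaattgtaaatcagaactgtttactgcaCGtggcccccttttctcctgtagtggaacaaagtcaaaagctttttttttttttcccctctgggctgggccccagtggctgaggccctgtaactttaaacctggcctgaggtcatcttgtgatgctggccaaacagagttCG
Dpp4: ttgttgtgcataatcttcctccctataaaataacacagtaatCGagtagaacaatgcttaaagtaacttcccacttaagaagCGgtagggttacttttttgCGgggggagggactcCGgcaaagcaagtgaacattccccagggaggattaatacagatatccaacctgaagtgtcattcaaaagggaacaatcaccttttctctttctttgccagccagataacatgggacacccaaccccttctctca
The *Pdpn* window holds 2 CG dinucleotides and 43.2% G and C, and the *Dpp4* window 4 CG dinucleotides and 43.6% G and C. The median over 32851 RefSeq promoter windows was 6 CG dinucleotides and 52.4% G and C. At the other end, the *Sema3c* window holds 39 CG dinucleotides and 78.4% G and C, but it lies in the exon of a longer annotated transcript and is not printed. RefSeq windows of 300 bases, 250 before and 50 after the start, matched 6 of the 10 members (*Pi16*, *Dpt*, *Cd34*, *Dpp4*, *Sema3c* and *Pdpn*) and were searched on both strands. The AP-1 motif TGANTCA (in 7.81% of all windows) and the CArG box (in 1.63%) were in 0 of the 6. The TEAD motif GGAATG (in 14.7%) was in *Dpp4*, and TATAAA (in 13.6%) was in *Dpt* and *Dpp4*. No 2 matches overlapped, and a match or its absence is a description of letters in the window.

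In KO aorta the genes of activated fibroblasts lay higher than in WT, while the resting genes did not move together. *Pdpn* was 3.89-fold and *Fap* 1.76-fold higher, and for both the lowest KO library was above the highest WT library, which held for 8.17% of all genes. *Clec3b*, *Sema3c* and *Pi16* were at 0.561, 0.546 and 0.643 times their WT level by the fitted fold change, *Ly6a*, *Dpp4* and *Dpt* at 1.48, 1.38 and 1.27 times, and *Cd34* and *Cd248* at 0.936 and 1.11 times. Over all genes tested, edgeR's quasi-likelihood test called 0 of the 10 members at an adjusted p under 0.05, where 0.0156% of all genes were called, all of them higher. At an unadjusted p under 0.05 edgeR had 4 members higher (*Pdpn*, *Fap*, *Ly6a* and *Dpp4*; 9.92% of all genes) and 1 lower (*Clec3b*; 7.27% of all genes). DESeq2 called *Fap* and *Pdpn* higher and 0 members lower, where it called 8.31% of all genes, 5.30% higher and 3.01% lower. Limma-voom called 0 members, where it called 0.0365% of all genes, all of them higher. In RNA of whole tissue, fewer cells of a type and less RNA per cell cannot be told apart.

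**Figure D1:**
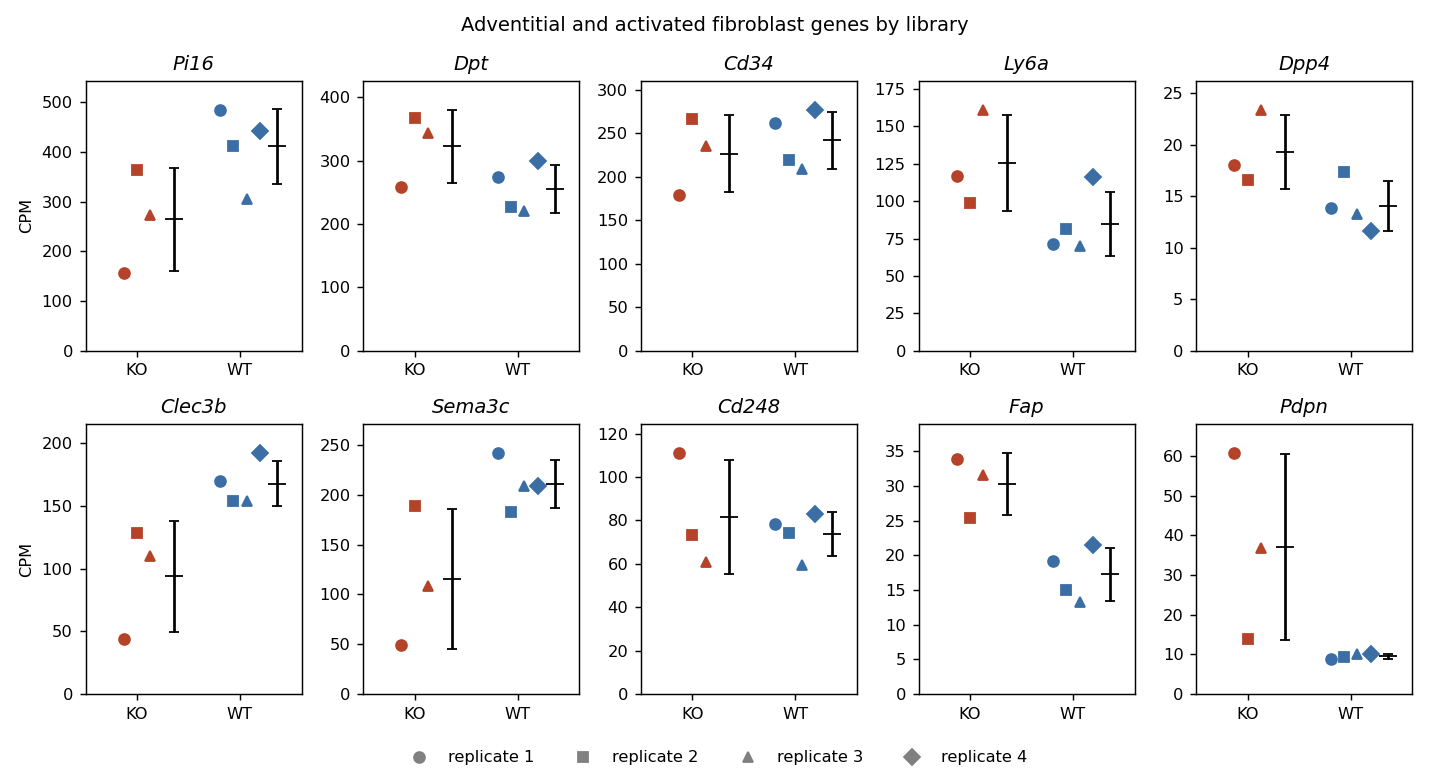
CPM of the 10 genes (y axis, from 0) in KO and WT libraries (x axis), 1 symbol per library with its replicate number, and the mean with SD as a bar beside each group. *Fap*, *Pdpn* and *Clec3b* have groups without overlap, and KO replicate 1 is the lowest library for *Pi16*, *Clec3b*, *Sema3c* and *Cd34* and the highest for *Pdpn*, *Fap* and *Cd248*.

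*Pdpn* encodes podoplanin, a membrane mucin that binds the platelet and myeloid receptor made from *Clec1b* and links to the actin cytoskeleton through ezrin and moesin. It lies on chromosome 4 (143267431 to 143299564, minus strand, GRCm38). *Pdpn* read 60.7, 13.8 and 36.8 CPM in KO replicates 1, 2 and 3, against 8.79, 9.26, 10.1 and 9.95 CPM in WT replicates 1 to 4. The KO libraries spread over a wide range with all of them above WT, and the WT libraries lay close together. Its log2 fold change of 1.96 (SE 0.42) had an edgeR adjusted p of 0.166 and a DESeq2 adjusted p of 0.000606, and the exact permutation p was 0.0286, 2-sided, the smallest that 7 libraries split 3 to 4 can give. Without KO replicate 2, the KO library nearest to WT, edgeR gave 2.41 (SE 0.22, adjusted p = 0.0174, where 5.16% of all genes were called, 3.34% higher and 1.81% lower), and without KO replicate 1 it gave 1.40 (SE 0.35, adjusted p = 0.289).

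*Fap* encodes fibroblast activation protein, a serine protease on the cell surface that cuts after proline, and lies on chromosome 2 (62500943 to 62574075, minus strand). *Fap* read 33.9, 25.3 and 31.6 CPM in KO replicates 1, 2 and 3, against 19.2, 15.0, 13.2 and 21.5 CPM in WT replicates 1 to 4. Here the KO libraries lay close together, and the lowest of them was above the highest WT library. The KO mean was 30.3 ± 4.45 CPM and the WT mean 17.2 ± 3.81 CPM (SD, n = 3 and 4). Its log2 fold change of 0.82 (SE 0.20) had an edgeR adjusted p of 0.172, a DESeq2 adjusted p of 0.00811 and an exact permutation p of 0.0286, 2-sided. Leaving out any 1 library gave log2 fold changes from 0.71 to 0.98.

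*Dpp4*, the closest relative of *Fap* among the members, encodes a surface peptidase that trims pairs of amino acids from the ends of chemokines and of the incretin hormone GLP-1. Both genes lie on chromosome 2 and the minus strand, with *Dpp4* at 62330073 to 62412231, and *Gcg*, which encodes the GLP-1 precursor, is the protein-coding gene annotated between them. *Dpp4* read 18.0, 16.6 and 23.4 CPM in KO replicates 1, 2 and 3, against 13.9, 17.4, 13.3 and 11.6 CPM in WT replicates 1 to 4. Its KO libraries lay in the upper part of the range, with KO replicate 2 below the highest WT library. EdgeR put *Dpp4* at a log2 fold change of 0.46 (SE 0.19, adjusted p = 0.275). The ratio of *Fap* to *Dpp4* CPM within a library was 1.88, 1.53 and 1.35 in KO replicates 1, 2 and 3, against 1.37, 0.863, 0.990 and 1.86 in WT replicates 1 to 4, so the groups overlapped.

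**Figure D2:**
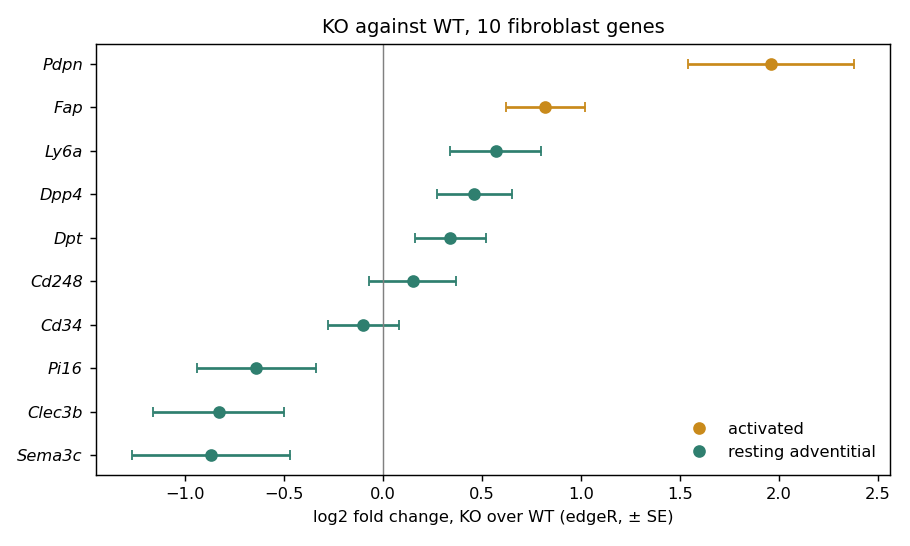
Log2 fold change of KO over WT (x axis) with the edgeR standard error as bars for each of the 10 genes (y axis), coloured by activated or resting. The genes run from *Sema3c* at -0.87 to *Pdpn* at 1.96, with resting genes on both sides of 0.

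The lower resting genes encode secreted or surface proteins. *Clec3b* encodes tetranectin, a secreted lectin-like protein that binds plasminogen (chromosome 9, 123150946 to 123157432, plus strand). It read 44.0, 128 and 109.8 CPM in KO replicates 1, 2 and 3, against 169.7, 154, 154 and 192 CPM in WT replicates 1 to 4. Every KO library lay below every WT library (8.56% of all genes did so, and 16.7% had no overlap in either direction), with KO replicate 1 far below the other KO libraries. Its log2 fold change was -0.83 (SE 0.33, edgeR adjusted p = 0.266, DESeq2 adjusted p = 0.103, exact permutation p = 0.0286, 2-sided), and it was -0.50 (SE 0.13) without KO replicate 1.

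*Sema3c* encodes a secreted class 3 semaphorin, a guidance factor that acts through neuropilins and plexins and is needed for outflow tract development in mouse (chromosome 5, 17574281 to 17730268, plus strand). It read 48.7, 189 and 108 CPM in KO replicates 1, 2 and 3, against 242, 183, 209 and 209 CPM in WT replicates 1 to 4. KO replicates 1 and 3 lay below all WT libraries, and KO replicate 2 lay just above the lowest of them. EdgeR's estimate of -0.87 on the log2 scale (SE 0.40, adjusted p = 0.317, exact permutation p = 0.0571, 2-sided) was -0.51 (SE 0.24) without KO replicate 1 and -1.39 (SE 0.31, edgeR adjusted p = 0.0590) without KO replicate 2.

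*Pi16* encodes a membrane-anchored protein of the CAP family (chromosome 17, 29317680 to 29330593, plus strand). It read 157, 364 and 273 CPM in KO replicates 1, 2 and 3, against 485, 413, 306 and 442 CPM in WT replicates 1 to 4. The groups overlapped, since KO replicate 2 lay above WT replicate 3. Its log2 fold change was -0.64 (SE 0.30, edgeR adjusted p = 0.322), -0.37 (SE 0.21) without KO replicate 1 and -0.89 (SE 0.28) without KO replicate 2. In each of these 3 lower genes the KO libraries stood in the order 1, 3, 2 from the lowest, and in *Pdpn* and *Fap* in the same order from the highest. *Cd34* and *Dpt*, the latter higher in KO, also ran 1, 3, 2 from the lowest. From the highest, *Ly6a* and *Dpp4* ran 3, 1, 2 and *Cd248* ran 1, 2, 3. The share of all genes with such an order was not counted.

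The higher resting genes had smaller differences. *Dpt* encodes dermatopontin, a small matrix protein that binds decorin and collagen fibrils (chromosome 1, 164796644 to 164824266, plus strand). It read 258, 367 and 343 CPM in KO replicates 1, 2 and 3, against 274, 226, 221 and 299 CPM in WT replicates 1 to 4. KO replicate 1 lay inside the WT range and the others above it, and edgeR's estimate was 0.34 on the log2 scale (SE 0.18, adjusted p = 0.372). *Ly6a* encodes Sca-1, a lipid-anchored surface protein used in mouse to mark progenitor cells (chromosome 15, 74994877 to 74998031, minus strand). It read 117, 98.7 and 161 CPM in KO replicates 1, 2 and 3, against 71.1, 81.4, 70.1 and 116 CPM in WT replicates 1 to 4, or 0.57 on the log2 scale by edgeR (SE 0.23, adjusted p = 0.275). WT replicate 4 lay above KO replicate 2, so the groups overlapped. *Ly6a* lies in a cluster of similar genes between *Ly6i* and *Ly6c1*, and the counting could split reads between them.

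*Cd34* and *Cd248* lay on either side of WT depending on the library left out. *Cd34* encodes a sialomucin of endothelium, blood progenitors and adventitial fibroblasts (chromosome 1, 194938819 to 194961279, plus strand). It read 179, 266 and 235 CPM in KO replicates 1, 2 and 3, against 262, 219.7, 209 and 277 CPM in WT replicates 1 to 4. The KO values spanned most of the WT range and went below it in KO replicate 1, and edgeR's estimate of -0.10 on the log2 scale (SE 0.18, adjusted p = 0.814) was 0.04 without that library. *Cd248* encodes endosialin, a surface protein with a lectin-like domain (chromosome 19, 5068078 to 5070682, plus strand), and read 111, 73.2 and 60.6 CPM in KO replicates 1, 2 and 3, against 78.3, 74.1, 59.6 and 82.8 CPM in WT replicates 1 to 4. KO replicate 1 alone lay above WT, and edgeR's estimate of 0.15 on the log2 scale (SE 0.22, adjusted p = 0.766) was -0.14 without it and -0.18 with limma-voom. Genes annotated antisense overlap *Pi16*, *Dpt*, *Cd34* and *Dpp4*, and without the strand setting their reads cannot be told apart from those of the members.

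Per length of exon, *Dpt* had the highest mean level in KO and *Clec3b* in WT, and this held in every library of each group. The KO mean of *Dpt* was 187 RPKM (CPM per kilobase of exon), followed by *Ly6a* at 104, *Clec3b* at 94.7 and *Pi16* at 41.6 RPKM. Without KO replicate 1, an alternative chosen after seeing the data, *Clec3b* at 119.8 RPKM stood above *Ly6a* at 108 RPKM, so their order in KO rests on that library. In WT, *Clec3b* was first at 169 RPKM, followed by *Dpt* at 148, *Ly6a* at 70.3 and *Pi16* at 64.7 RPKM. *Ly6a* and *Pi16* overlapped in WT. *Pdpn* had a mean of 20.4 RPKM in KO and 5.24 RPKM in WT, and *Sema3c* 16.1 RPKM in KO and 29.5 RPKM in WT. *Pdpn* lay above *Sema3c* in KO replicates 1 and 3 but below it in KO replicate 2 (7.58 against 26.4 RPKM), and the KO means without replicate 1 were 13.9 RPKM for *Pdpn* and 20.7 RPKM for *Sema3c*. *Fap* and *Dpp4* were the lowest in both groups, at 5.35 and 3.06 RPKM in KO and 3.04 and 2.22 RPKM in WT.

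Set against each other within a library, activated genes lay closer to resting ones in KO than in WT. The groups were apart in the activated genes and overlapped in the resting ones. Mean log2 CPM of *Fap* and *Pdpn* was 5.50, 4.23 and 5.09 in KO replicates 1, 2 and 3. In WT replicates 1 to 4 it was 3.70, 3.56, 3.53 and 3.87. For the 8 resting genes it was 6.46, 7.06 and 6.97 in KO, against 7.08, 6.97, 6.81 and 7.15 in WT. The mean log2 CPM of *Fap* and *Pdpn* minus that of the 8 resting genes was -0.96, -2.84 and -1.87 in KO replicates 1, 2 and 3, against -3.38, -3.41, -3.28 and -3.27 in WT replicates 1 to 4. The WT libraries lay within a narrow band, and the KO libraries lay above it at distances that differed widely. The group means were -1.89 ± 0.94 in KO and -3.34 ± 0.07 in WT (SD, n = 3 and 4), a difference of 1.45 on the log2 scale, which was 0.98 without KO replicate 1 and 1.92 without KO replicate 2. Without *Cd34* and *Ly6a*, which endothelium also expresses, it was 1.58. As a score over chosen genes it is given without a test.

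Some resting genes also stood in different proportions to each other. The ratio of *Pi16* to *Dpt* CPM, a pair chosen after the values had been seen, was 0.608, 0.994 and 0.797 in KO replicates 1, 2 and 3, against 1.77, 1.83, 1.39 and 1.48 in WT replicates 1 to 4. *Pi16* was thus counted below *Dpt* in every KO library and above it in every WT library. The ratio of *Clec3b* to *Dpt* was 0.280 ± 0.0958 in KO and 0.661 ± 0.0362 in WT, and that of *Sema3c* to *Dpt* 0.339 ± 0.164 in KO and 0.835 ± 0.107 in WT (SD, n = 3 and 4), also without overlap. Relative to *Dpt*, 23.9% of the other genes tested had no overlap, 22.2% with every KO library below and 1.74% with every KO library above. The ratio of *Ly6a* to *Cd34* overlapped, at 0.657, 0.371 and 0.685 in KO replicates 1, 2 and 3, against 0.271, 0.370, 0.335 and 0.419 in WT replicates 1 to 4. These pairs and *Fap* over *Dpp4* were likewise chosen with the values known, and the ratios do not depend on the scaling between libraries.

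**Figure D3:**
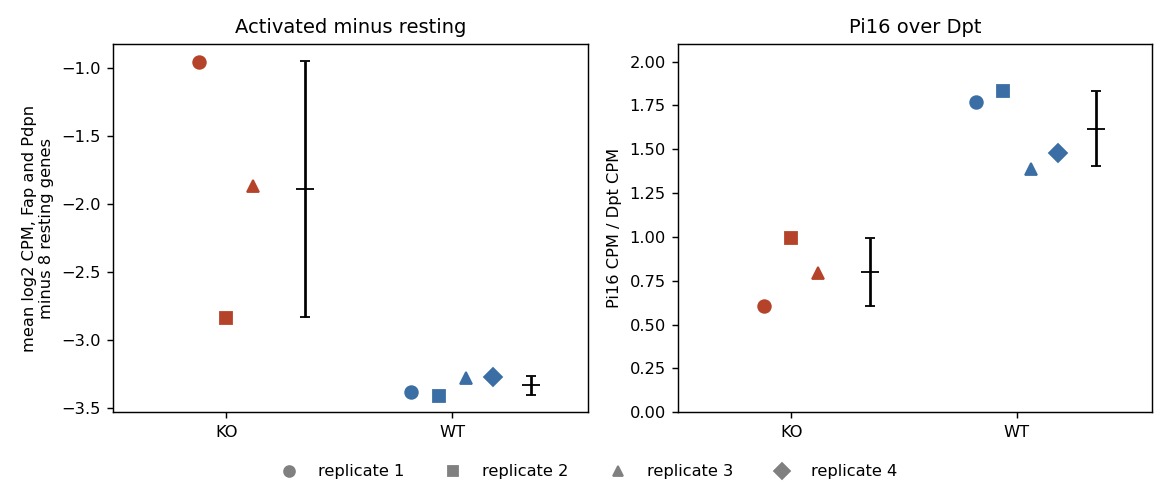
Left, mean log2 CPM of *Fap* and *Pdpn* minus that of the 8 resting genes (y axis), and right, the ratio of *Pi16* to *Dpt* CPM (y axis, from 0), in KO and WT libraries (x axis), 1 symbol per library, with the mean and SD as a bar. KO libraries lie above WT on the left (-2.84 to -0.96 against -3.41 to -3.27) and below WT on the right (0.608 to 0.994 against 1.39 to 1.83).

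Relative to *Pdgfra*, the growth factor receptor found on most fibroblasts, *Sema3c* separated the groups along with the 3 members that did so in CPM. On this measure 14.4% of the other genes tested had no overlap, 3.58% with every KO library above and 10.8% with every KO library below, and *Pdgfra* was chosen with its values known. *Pdgfra* itself read 171, 139 and 114 CPM in KO replicates 1, 2 and 3, against 144, 104, 123 and 128 CPM in WT replicates 1 to 4. Per unit of *Pdgfra*, *Pdpn* was at 0.258 ± 0.139 in KO and 0.0774 ± 0.0117 in WT, and *Fap* at 0.219 ± 0.0506 in KO and 0.138 ± 0.0251 in WT (SD, n = 3 and 4), each with every KO library above WT. *Clec3b* was at 0.711 ± 0.394 in KO and 1.35 ± 0.159 in WT, and *Sema3c* at 0.859 ± 0.538 in KO and 1.69 ± 0.0495 in WT, each with every KO library below WT. The other 6 members overlapped on this measure.

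Other genes known from resting adventitial and *Pi16*-positive fibroblasts lay mostly lower in KO. Among 19 such genes 14 were negative, the median log2 fold change being -0.42 here and -0.03 over the whole table. EdgeR called 0 of the 19, and DESeq2 called 2 higher and 5 lower, where it called 5.30% of all genes higher and 3.01% lower. At an unadjusted p under 0.05 edgeR had 2 higher and 7 lower, where it had 9.92% of all genes higher and 7.27% lower. The list was chosen with earlier results of these data known. *Gli1*, a transcription factor and target of Hedgehog signalling that marks adventitial progenitor cells in mouse, read 5.23, 15.2 and 8.18 CPM in KO replicates 1, 2 and 3, against 21.6, 25.8, 24.4 and 24.9 CPM in WT replicates 1 to 4 (edgeR log2 fold change -1.34, SE 0.34, adjusted p = 0.174). *Cygb*, the fibroblast globin cytoglobin, had a KO mean of 92.3 ± 8.25 CPM and a WT mean of 124 ± 8.96 CPM (SD, n = 3 and 4). Every KO library lay below WT for *Cygb*, as in 8.56% of all genes. *Penk*, the proenkephalin gene, went the other way, with a KO mean of 29.0 ± 8.82 CPM and a WT mean of 13.9 ± 1.66 CPM. So did *Il33*, with overlap and a larger edgeR log2 fold change of 1.72 (SE 0.47, DESeq2 adjusted p = 0.00873). It read 137, 26.8 and 87.1 CPM in KO replicates 1, 2 and 3, against 26.6, 19.0, 24.3 and 31.7 CPM in WT replicates 1 to 4. Leaving out KO replicate 1 took the median of the list to -0.21, and leaving out WT replicate 4 took it to -0.23.

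Other genes of activated fibroblasts and myofibroblasts lay mostly higher in KO, with 22 of 23 positive and a median log2 fold change of 0.78. The negative one was *Postn*, at -0.23 (SE 0.28). The summed level of the 23 ran from 7724 to 12051 CPM in KO and from 5612 to 8388 CPM in WT, so the groups overlapped. EdgeR called 1 of the 23 higher over all genes tested, *Col8a1*. DESeq2 called 11 higher and 0 lower, where it called 5.30% of all genes higher and 3.01% lower. At an unadjusted p under 0.05 edgeR had 16 higher and 0 lower, where it had 9.92% of all genes higher and 7.27% lower. This list, too, was chosen with earlier results of these data known. *Col8a1*, a short-chain collagen, read 440.4, 218 and 363 CPM in KO replicates 1, 2 and 3, against 24.6, 14.5, 25.1 and 32.3 CPM in WT replicates 1 to 4 (edgeR log2 fold change 3.82, SE 0.33, adjusted p = 0.0386). For *Cthrc1*, an injury-induced secreted protein, the KO mean was 78.9 ± 50.7 CPM and the WT mean 6.08 ± 1.74 CPM. For *Runx1*, a transcription factor, the KO mean was 41.5 ± 35.9 CPM and the WT mean 5.19 ± 1.64 CPM (SD, n = 3 and 4). Smooth muscle cells and macrophages can make several of these transcripts too. With any 1 library left out edgeR called 0 genes of the whole table, except that it called 1029 without KO replicate 2.

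General fibroblast genes did not share a direction. Of 20 such genes 12 were positive and 8 negative, and the median log2 fold change of 0.15 became -0.02 both when KO replicate 1 was left out and under limma-voom. EdgeR called 0 of them, with 3 higher and 2 lower at an unadjusted p under 0.05, and DESeq2 called 1 higher and 0 lower. Over all genes, edgeR had 9.92% higher and 7.27% lower at that threshold, and DESeq2 called 5.30% higher and 3.01% lower. Their summed level ran from 25647 to 39869 CPM in KO and from 21178 to 36239 CPM in WT, so the groups overlapped. *Lum*, the collagen-binding proteoglycan lumican, had a KO mean of 452 ± 32.2 CPM and a WT mean of 187 ± 37.3 CPM (DESeq2 adjusted p = 5.30e-08, edgeR adjusted p = 0.165), while *Mfap5*, a microfibril protein of adventitial fibroblasts, had a KO mean of 256 ± 63.6 CPM and a WT mean of 393 ± 72.8 CPM (SD, n = 3 and 4). *Fbln2*, the matrix protein fibulin 2, read 662, 308 and 426 CPM in KO replicates 1, 2 and 3, against 332, 251, 251 and 301 CPM in WT replicates 1 to 4.

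**Figure D4:**
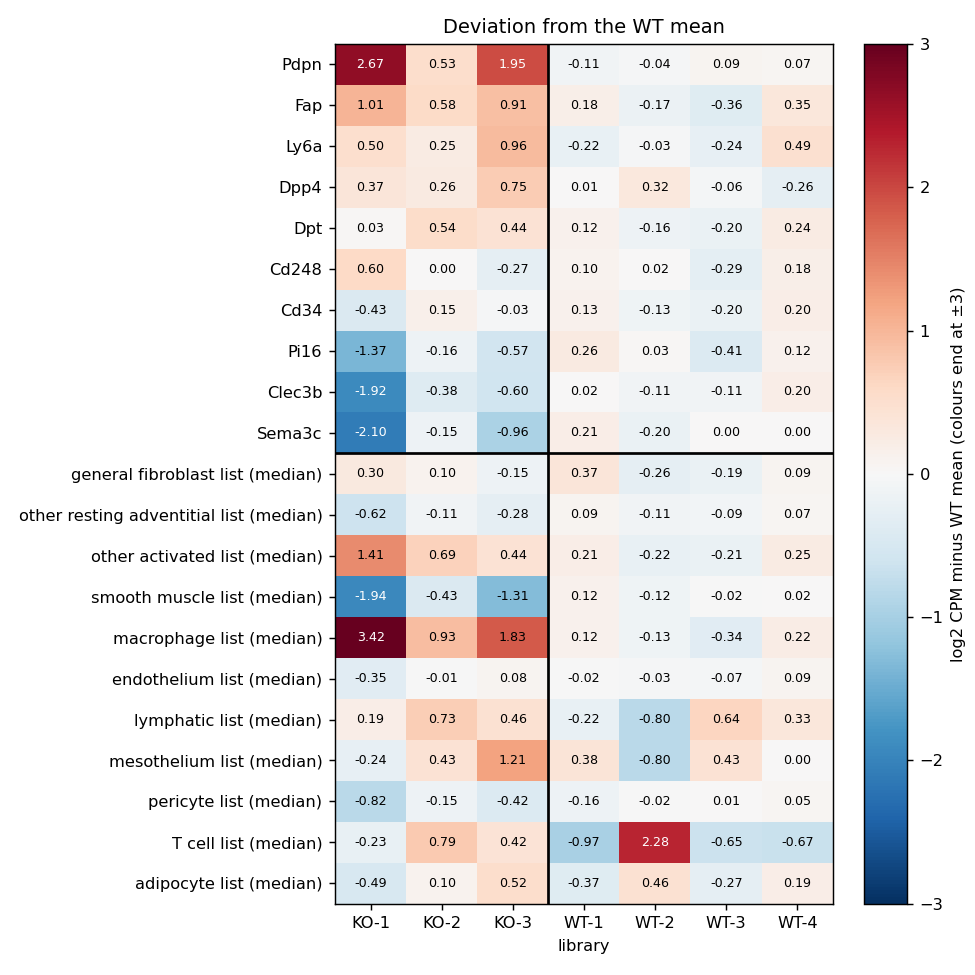
Log2 CPM minus the WT mean for the 10 genes, and the median of the same over each gene list, in each of the 7 libraries (x axis), with the value printed in each cell and colours ending at 3 in either direction. Among the KO libraries, replicate 1 departs furthest for *Pdpn*, *Sema3c*, *Clec3b* and *Pi16* and for the macrophage and smooth muscle lists, and replicate 2 the least.

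Among 15 tested genes for binding partners of the member proteins, 8 were positive and 7 negative, at a median of 0.02 on the log2 scale. EdgeR called 0 of them, with 3 higher and 0 lower at an unadjusted p under 0.05, and DESeq2 called the same number higher and 0 lower. The shares over all genes were 9.92% higher and 7.27% lower with edgeR, and 5.30% higher and 3.01% lower with DESeq2. Among the higher ones were *Ezr*, the ezrin gene that tethers podoplanin to actin, and *Cd44*, a hyaluronan receptor that binds podoplanin. The KO mean of *Ezr* was 46.3 ± 10.1 CPM and its WT mean 28.5 ± 2.35 CPM. The KO mean of *Cd44* was 118 ± 75.5 CPM and its WT mean 48.1 ± 12.8 CPM (SD, n = 3 and 4). Every KO library lay above WT for *Ezr*, as in 8.17% of all genes, and the groups overlapped for *Cd44*. Other partners on the list did not share this direction. EdgeR's log2 fold change was 1.44 for *Clec1b* (SE 0.66), with overlap, and -0.04 for *Msn*, the moesin gene (SE 0.18). It was -0.03 for *Lgals8* (SE 0.12) and -0.33 for *Cd9* (SE 0.22). *Plg*, which encodes the plasminogen that tetranectin binds, was listed at 0 in all libraries.

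Relatives of the members by protein family were split evenly, with 13 of 26 positive and a median log2 fold change of 0.01. EdgeR called 0 of them, with 5 higher and 4 lower at an unadjusted p under 0.05, and DESeq2 called 4 higher and 2 lower. Of all genes, edgeR had 9.92% higher and 7.27% lower at that threshold, and DESeq2 called 5.30% higher and 3.01% lower. *Glipr1*, a CAP family gene like *Pi16*, had a KO mean of 34.3 ± 7.10 CPM and a WT mean of 18.6 ± 1.94 CPM, opposite in sign to *Pi16*. EdgeR's log2 fold changes of *Glipr2*, *Crispld1* and *Crispld2* were 1.13, 0.03 and -0.87 (SE 0.36, 0.36 and 0.26), so *Crispld2* had the sign of *Pi16*. *Ly6e*, an interferon-inducible relative of *Ly6a*, had a KO mean of 282 ± 116 CPM and a WT mean of 139 ± 21.8 CPM. *Sema3b*, a class 3 semaphorin like *Sema3c*, had a KO mean of 28.6 ± 9.66 CPM and a WT mean of 67.1 ± 8.60 CPM (SD, n = 3 and 4). *Sema3d*, named after its values had been seen, had a KO mean of 60.7 ± 30.3 CPM and a WT mean of 108 ± 13.1 CPM, with overlap. The other class 3 semaphorins lay on both sides, *Sema3a* and *Sema3f* at -0.70 and -0.49, and *Sema3e* and *Sema3g* at 0.31 and 0.24 (edgeR log2 fold change).

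Markers of other cells that make member transcripts differed between libraries alongside some of these results. Macrophage markers, 11 of 11 positive, summed to between 678 and 3798 CPM in KO and between 306 and 524 CPM in WT, and their median deviations from the WT mean were 3.42, 0.93 and 1.83 on the log2 scale in KO replicates 1, 2 and 3. *Ms4a7*, a macrophage membrane protein gene, had a KO mean of 22.8 ± 17.6 CPM and a WT mean of 2.53 ± 0.186 CPM. *Pdpn* deviated by 2.67, 0.53 and 1.95 and *Fap* by 1.01, 0.58 and 0.91 in the same libraries, the same order. Smooth muscle markers, 10 of 10 negative, summed to between 3727 and 14171 CPM in KO and between 18671 and 20669 CPM in WT, with deviations of -1.94, -0.43 and -1.31. *Mylk*, the myosin light chain kinase gene, had a KO mean of 409.9 ± 188 CPM and a WT mean of 829 ± 98.2 CPM (SD, n = 3 and 4). *Sema3c* deviated by -2.10, -0.15 and -0.96, *Clec3b* by -1.92, -0.38 and -0.60 and *Pi16* by -1.37, -0.16 and -0.57. The part of macrophages and of smooth muscle in these results was not tested.

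Lymphatic markers, 4 of 5 positive, summed to between 103 and 131 CPM in KO and between 63.5 and 116 CPM in WT, and mesothelial markers, 9 of 10 positive, to between 61.3 and 169.6 CPM in KO and between 51.8 and 112 CPM in WT. KO replicate 1, the highest library for *Pdpn*, had the lowest KO sum on both lists. Endothelial markers, 4 of 10 positive, summed to between 1062 and 1737 CPM in KO and between 1683 and 1811 CPM in WT, and KO replicate 1, the lowest library for *Cd34*, was also the lowest for these. T cell markers, 3 of 9 positive, summed to between 24.5 and 50.7 CPM in KO and between 15.0 and 141 CPM in WT, with the highest sum in WT replicate 2, which also had the highest *Dpp4* of the WT libraries. The T cell median log2 fold change of -0.28 was 1.11 without that library, 0.59 with limma-voom and 0.22 with the replicate block. Pericyte markers, 0 of 8 positive, summed to between 1172 and 1835 CPM in KO and between 1896 and 2392 CPM in WT, lower in every KO library, while *Cd248* overlapped between the groups. Adipocyte markers, 6 of 10 positive, summed to between 3879.7 and 8545 CPM in KO and between 4769 and 8314 CPM in WT, and Schwann cell markers, 0 of 7 positive, to between 167 and 350.0 CPM in KO and between 233 and 572 CPM in WT. The Schwann cell median of -0.46 was 0.19 without WT replicate 3, which had the highest sum, and 0.12 with limma-voom. The adipocyte median of 0.03 ran from -0.34 without KO replicate 3 to 0.26 without WT replicate 2. Markers of heart and skeletal muscle, 10 of 10 positive, summed to between 177 and 696 CPM in KO and between 22.0 and 88.8 CPM in WT. In 2 of the 10 every KO library lay above WT (8.17% of all genes did so), and different KO libraries were high for different genes. In KO replicates 1, 2 and 3, *Myh6* read 411, 500.2 and 0.738 CPM and *Tnnt3* 1.02, 1.16 and 29.0 CPM. WT ran from 2.35 to 47.0 CPM for *Myh6* and from 1.09 to 1.70 CPM for *Tnnt3*. None of the matched markers on these lists was at 0 in all libraries, and their part in the members' values was not tested.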

How the data were processed

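Total RNA of aorta was extracted with Trizol and 2 µg per library was prepared with a SMARTER kit, per the labels' protocols. Estimated counts for each gene were deposited in 1 table, all whole and not scaled, and rounding did not change them. The builds are GRCm38 and mm10, per the submitters' processing notes, and for the aligner, counter, annotation release and strand setting the sources used here give nothing. Counts at multiples of 4 between 8 and 40 occurred 1.09 to 1.41 times as often as the counts beside them, so a count of 1 need not be 1 read, and totals are given as counts. Counting error was therefore not given as intervals, and the spread between libraries is the error used. Of 47729 identifiers 47310 matched a symbol and 419 did not (0.0325% to 0.0397% of counts). Symbols shared by several identifiers (136 identifiers) were left out of the lists. Positions and exon lengths come from GENCODE M21 (GRCm38).

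Genes were filtered with filterByExpr, scaled by TMM and tested with edgeR 4.0.16 (glmQLFit and glmQLFTest, R 4.3.3) without covariates, with Benjamini-Hochberg adjustment over 19188 genes and a threshold of 0.05. CPM use the TMM factors, and log2 CPM a prior count of 2. Exact permutation tests used the 35 splits of 7 libraries on log2 CPM. Alternatives were DESeq2 1.42.0, limma-voom (limma 3.58.1) with sample weights, edgeR under DESeq2 or upper-quartile scaling, edgeR unfiltered or with 50 counts in at least 3 libraries, a replicate block, and each library left out in turn. The lists (15 with 193 genes, the 10 members aside) and members were chosen with earlier results of these data known. The rule named the members, *Mmp19* and the 3 genes of each list with the smallest p. *Pdgfra*, *Sema3d*, *Plg*, *Postn*, *Myh6* and *Tnnt3* lie outside the rule and were chosen with their values known. The same holds for *Clec1b*, *Msn*, *Lgals8*, *Cd9*, *Glipr2*, *Crispld1*, *Crispld2*, *Sema3a*, *Sema3e*, *Sema3f*, *Sema3g* and *Il33*. Of the genes the rule names on the marker lists, 1 each is printed for macrophages and smooth muscle. Some genes the rule names are not reported here. No pair of libraries was a duplicate (mean chi-square per gene of counts divided by 4 of 20.4 or more).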

Additional observations from a re-analysis of the deposited data

Results flagged for a closer look

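Among 54 named genes, 4 had 1 WT library far from the other 3, where chance flags about 1 in 20, and none of them is one of the 10 members. WT replicate 2 had 25.0 CPM of *Cd4* and 52.7 CPM of *Cd8a*, T cell genes, against 1.22 to 4.47 CPM and 3.84 to 6.22 CPM in the other WT libraries. WT replicate 3 had 51.3 CPM of *Cdh19* and 14.7 CPM of *Sox10*, Schwann cell genes, against 5.12 to 8.05 CPM and 1.86 to 3.20 CPM in the other WT libraries.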

How the results depend on the processing

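*Pi16*, *Dpt*, *Ly6a*, *Dpp4*, *Clec3b*, *Sema3c*, *Fap* and *Pdpn* kept the sign of their log2 fold change under all 14 alternatives. *Cd34* turned to 0.04 without KO replicate 1, and *Cd248* to -0.14 without KO replicate 1 and to -0.18 with limma-voom. The count of members called, 0 with edgeR, was 2 with DESeq2 (*Fap* and *Pdpn*) and ran from 0 to 1 (*Pdpn*, without KO replicate 2) when 1 library was left out. The count of all genes called, 3 with edgeR, was 0 without a filter, 7 with 50 counts in at least 3 libraries, 1594 with DESeq2, 7 with limma-voom and 0 with the replicate block, and ran from 0 to 1029 when 1 library was left out. The cause was not tested. The replicate numbers were not taken to pair libraries, since the labels do not say that they do. Deviations of same-numbered libraries correlated by 0.0545, 0.0691 and 0.340. Differently numbered libraries were not correlated for comparison, so these values cannot decide on pairing. With the replicate block, 0 members were called, and the log2 fold changes of *Pdpn* and *Fap* were 1.75 and 0.95. WT replicate 4 has no KO library of its number, so it adds nothing to the group difference there. With fewer libraries to measure spread, a count of 0 called in that fit says little about the members. Leaving out 1 library, the median of the other resting adventitial genes ran from -0.45 to -0.21. The difference between activated and resting genes ran from 0.98 to 1.92 when 1 library was left out and was 1.45 with a prior count of 0.5 or with library totals.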
